A study of Homo sapiens with 15 samples.

Results

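Genes for heat shock proteins and cytosolic chaperones were followed in HCT116 cells treated with extracts of olive oil production waste or with hydroxytyrosol. The list held 47 genes: the heat shock factors, the HSP70, HSP110, HSP90 and small heat shock protein families, the mitochondrial chaperonin, J-domain and BAG proteins, HSP90 and HSP70 partners, the TRiC chaperonin, prefoldin and the collagen chaperone SERPINH1. They were matched by symbol to the Ensembl identifiers of the deposited table, in which HSPB11 is found under the synonym IFT25. A gene was reported if it reached 1 TPM in at least 3 of the 15 libraries, which 46 of the 47 did, among 14899 such genes of the 60664 in the table. CRYAB, the small heat shock protein alpha-B-crystallin, was the exception, listed at 0 in 14 libraries and at 0.26 TPM in 1.

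HCT116 is a human colorectal carcinoma line of epithelial origin. Cells were kept for 72 h with 0.0154 mg/mL of 1 of 3 extracts, named for their regions as AE (Apulia), TE (Tuscany) and SE (Sicily), with the same dose of hydroxytyrosol (HTyr), a phenolic compound of olives, or untreated (CTR). Each of the 5 groups had 3 poly(A) RNA libraries, and 1 cell line was used throughout. Values are TPM, a transcript abundance divided by length and scaled to a common total in every library. TPM keep no sequencing depth, so the depth behind each library's values cannot be read from the table, and the study's methods state only an average over the samples. The labels name biological replicates without saying how the cultures were set up, so the p-values below measure the spread between these libraries.

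Some points on the whole series bear on every value. The codes in the sample titles give the TE and SE columns to the opposite region from the sample descriptions and from the column headings of the study's own expression table. The descriptions were followed, and if the title codes were right, TE and SE would swap throughout. Within groups, rank correlations between libraries over the tested genes were 0.972 to 0.982, and no 2 libraries held identical values. All 6 epithelial markers examined were present at 25.3 to 1611 TPM, while of the fibroblast markers only COL1A1 passed the filter, at up to 8.53 TPM, and no immune or endothelial marker did. These markers summed to 4.45 to 8.98 TPM per library for fibroblasts, 0 to 2.35 TPM for immune cells and 0.07 to 0.62 TPM for endothelium. In bulk RNA, fewer cells of a kind and less RNA per cell cannot be told apart.

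Chaperones bind unfolded or partly folded proteins and help them reach or keep their native form. HSP70 works in cycles of ATP hydrolysis that J-domain proteins start and exchange factors such as HSP110 and BAG proteins complete, and HSP90 then matures clients such as kinases and steroid receptors with the help of its own partners. TRiC folds actin and tubulin, which prefoldin delivers to it. Under proteotoxic stress, the transcription factor HSF1 binds heat shock elements, inverted repeats of nGAAn, in the promoters of many of these genes, and tumour cells often hold the system at a high level.

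Chaperone transcripts were most abundant after SE. The 46 genes together made up 1.07% ± 0.0325 of all TPM in AE, 1.01% ± 0.0307 in TE, 1.61% ± 0.0263 in SE and 0.985% ± 0.0527 in HTyr, against 0.821% ± 0.0168 in CTR (SD, n = 3 each). In 40 of the 46 genes the highest group mean was that of SE, and the share of all genes tested with this order was not counted. For 34 of the 46 chaperone genes all 3 SE libraries lay above the other 12, as was the case for 12.4% of all genes tested. For 1, PFDN2, all 3 lay below, as for 5.27% of all genes.

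Genes were compared with limma on log2(TPM + 0.5), and called changed where the fold change exceeded 1.5 in either direction and the p adjusted over all 14899 genes (Benjamini-Hochberg) was below 0.05. With SE, 29 of the 46 chaperone genes rose (63.0%) and 1 fell, against 17.0% of all genes that rose and 11.0% that fell. With AE, 11 rose (23.9%) and 1 fell, where 10.7% of all genes rose and 5.81% fell. TE gave 6 rises (13.0%) and 1 fall, beside 7.46% and 5.26% of all genes. HTyr gave 2 rises and 2 falls (4.35% each), shares below the 7.80% and 8.45% of all genes that rose and fell.

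The changes were also largest with SE. The median log2 fold change over the 46 genes was 0.76 with SE, 0.33 with AE, 0.28 with TE and 0.19 with HTyr, while that over all genes tested was 0.09, 0.09, 0.05 and -0.04. All 4 treatments share the same CTR libraries. Only HSPA1B and HSPB11 were called up with all 4 treatments, and HSPA8, DNAJA1, CHORDC1 and FKBP5 with the 3 extracts. HSPA1A, HSP90AA1, HSPE1, DNAJC7 and BAG2 were called up with AE and SE, and 18 genes with SE alone. A gene not called with a treatment may still be higher by less than the fold threshold. At adjusted p under 0.05 without that threshold, 31 of the 46 rose with AE, 29 with TE and 21 with HTyr, given without the shares of all genes. Called down were HSPB8, with AE, TE and HTyr, and PFDN2, with SE and HTyr, and 15 genes were called with no treatment. How many of all tested genes show each of these patterns was not counted.

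When libraries were rescaled to a common median, the median log2 fold change of all genes moved down by 0.097 with SE and 0.087 with AE, and the fold changes here are to be read relative to that. The median over the 46 genes was then 0.66 with SE, 0.24 with AE, 0.23 with TE and 0.22 with HTyr, and under quantile normalization 0.53, 0.20, 0.21 and 0.16. The order of AE and TE was thus not stable. SE stayed highest in both, and HTyr stayed lowest, after rescaling by a narrow margin. After the rescaling, SE had 25 rises and 1 fall among the chaperone genes, AE had 8 rises and 2 falls, and TE and HTyr each had 4 rises and 1 fall. For HTyr the split between rises and falls thus depended on the scaling. Among all genes the split with SE also moved, with 2000 rises and 2053 falls after rescaling in place of 2532 and 1636. No such counts over all genes are set beside those of AE, TE and HTyr, so their rescaled counts show only how calls moved.

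**Figure D1:**
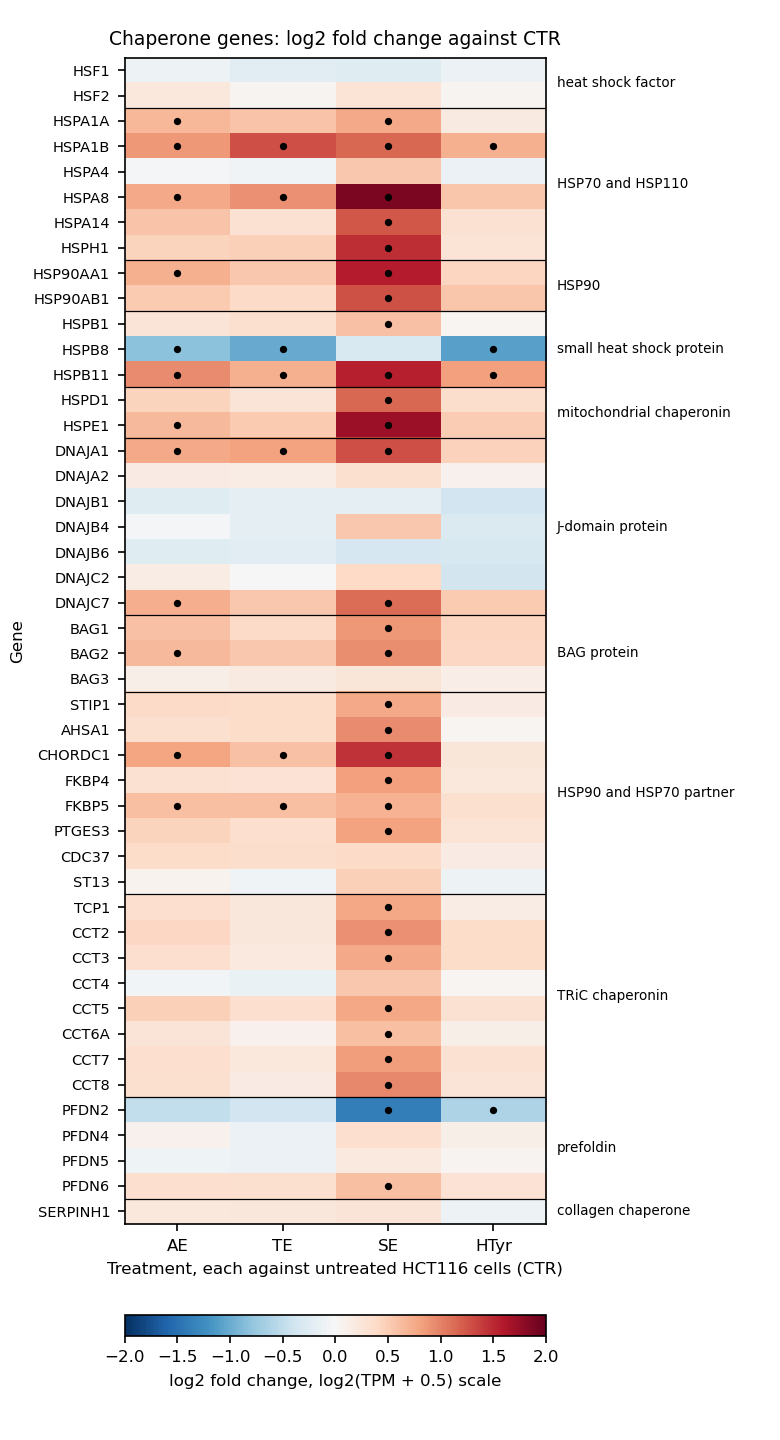
Log2 fold change of the 46 chaperone genes (rows, grouped by class) with AE, TE, SE and HTyr (columns), each against CTR, on the log2(TPM + 0.5) scale, where red is higher and blue lower in treated cells and dots mark the calls. The SE column holds 30 of the calls, from HSPA8 at 1.88 to PFDN2 at -1.38.

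Because heat shock elements are the known promoter feature of this gene family, promoters were searched for them. RefSeq windows on GRCh38.p14, each from 250 bases before to 50 after a start site, were found for 39 of the 46 genes. A pair of inverted units (GAANNTTC or TTCNNGAA, a motif that reads the same on both strands) was present in 20 of these 39 (51.3%), against 13.3% of the 10543 tested genes with a window. At least 3 alternating GAA and TTC units, spaced by 2 bases, were present in 8 of the 39 (20.5%), against 0.484% of the same background, and such a run contains the pair motif. The following stretches hold the 10 such runs of those 8 genes, of which HSPA8 and HSP90AB1 have 2 each. They are read along the gene's strand, with the GAA and TTC units of the run in capitals, while single units and further pairs stay in lower case.
HSPA8, distal run: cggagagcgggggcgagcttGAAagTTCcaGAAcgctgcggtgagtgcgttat
HSPA8, proximal run: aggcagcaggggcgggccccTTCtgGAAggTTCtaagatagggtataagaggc
HSP90AA1: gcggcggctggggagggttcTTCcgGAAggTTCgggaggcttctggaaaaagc
HSP90AB1, distal run: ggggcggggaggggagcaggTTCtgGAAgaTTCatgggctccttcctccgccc
HSP90AB1, proximal run: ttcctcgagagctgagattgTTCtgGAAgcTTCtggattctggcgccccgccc
CHORDC1: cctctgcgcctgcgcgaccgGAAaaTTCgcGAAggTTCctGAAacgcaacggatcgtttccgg
HSPD1: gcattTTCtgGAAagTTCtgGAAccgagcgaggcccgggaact
DNAJA1: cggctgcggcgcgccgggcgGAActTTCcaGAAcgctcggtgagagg
DNAJB6: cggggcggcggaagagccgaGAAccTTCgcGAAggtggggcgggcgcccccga
SERPINH1: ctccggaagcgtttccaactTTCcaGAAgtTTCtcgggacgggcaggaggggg
They lie at chr11:123062334-123062386 and chr11:123062159-123062211 (minus strand), chr14:102087100-102087152 (minus), chr6:44247758-44247810 and chr6:44247811-44247863 (plus), chr11:90223067-90223129 (minus), chr2:197500048-197500090 (minus), chr9:33025256-33025302 (plus), chr7:157336853-157336905 (plus) and chr11:75562157-75562209 (plus). The longest was the run of 5 units in CHORDC1, from 60 to 38 bases before the start site, followed by 4 units in HSPD1, and the other runs had 3. The proximal run of HSPA8 lies 55 to 43 bases before the start site, and that of HSP90AB1 112 to 100 bases before it.

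Of the 8 genes with such a run, 6 rose with SE, and DNAJB6 and SERPINH1 did not, while 19 of the 31 genes with a window but no such run rose. For the shorter pair motif, 14 of the 20 genes that had it rose, and 11 of the 19 that did not have it. No test of these counts was made. HSPH1 and HSPE1, both among the largest rises with SE, had neither motif in their windows. Only exact units spaced by 2 bases were matched, so imperfect elements, or elements outside the windows, would not be found for any gene. The window of HSPE1 begins at position 197500129 of chromosome 2, 44 bases beyond the run assigned to HSPD1, with which it shares the stretch between both genes. In the gene coordinates used here HSPE1 starts at 197500140, so its window holds little sequence before that start. The run at 197500068 to 197500085 was therefore not searched for HSPE1, which stands among the genes without either motif in the counts above. These matches describe the sequence only, and binding was not measured.

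HSF1 itself, the main regulator of the heat shock response, was not called with any treatment. It was measured at 58.4, 60.3 and 66.1 TPM with AE, at 63.1, 53.8 and 55.1 TPM with TE, at 54.2, 56.0 and 57.1 TPM with SE and at 57.6, 61.2 and 64.0 TPM with HTyr, against 70.0, 60.8 and 67.4 TPM in CTR. The 3 SE libraries lay below the 3 CTR libraries, while the other groups overlapped with CTR. The log2 fold change with SE was -0.24 ± 0.075 (SE of the fit, adjusted p = 0.0158), under the fold threshold. HSF2, a related factor, averaged 19.8 to 23.1 TPM in treated groups and 19.1 TPM in CTR, with log2 fold changes of 0.05 to 0.27 and no adjusted p under 0.05. HSF1 activity, which depends on trimerization and phosphorylation, is not visible in transcript levels.

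Of the 6 HSP70 and HSP110 genes, 5 rose with SE, 3 with AE, 2 with TE and 1 with HTyr. HSPA8, the constitutive cytosolic HSP70 (ENSG00000109971, chr11:123057489-123063230, GRCh38), had 754, 672 and 769 TPM with AE, 799, 879 and 756 TPM with TE, 1635, 1571 and 1555 TPM with SE and 599, 593 and 710.1 TPM with HTyr, against 427, 450.4 and 412 TPM in CTR. All 12 treated libraries lay above CTR, and those of SE stood far above the rest. Its log2 fold change was 1.88 ± 0.077 with SE (adjusted p = 4.49e-10), 0.77 with AE, 0.91 with TE and 0.56 with HTyr, the last just under the fold threshold. Without HTyr replicate 1 or 2, or CTR replicate 2, the HTyr change came to 0.59 to 0.60 and passed.

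HSPH1, an HSP110 exchange factor that also holds unfolded proteins, had 52.5, 45.5 and 50.8 TPM with AE, 50.2, 53.6 and 48.9 TPM with TE, 105.3, 96.5 and 105.2 TPM with SE and 62.3, 34.4 and 39.95 TPM with HTyr, against 36.7, 39.2 and 33.1 TPM in CTR. SE did not overlap with any group. HTyr replicate 1 stood above the other 2 HTyr libraries, which fell within or near the CTR range. HSPA14, an HSP70 that works on nascent chains at the ribosome, had 17.0, 18.1 and 16.7 TPM with AE, 15.8, 14.2 and 13.2 TPM with TE, 26.6, 30.5 and 26.5 TPM with SE and 14.5, 14.2 and 14.3 TPM with HTyr, against 10.8, 11.8 and 11.9 TPM in CTR. Every treated library was above CTR, and the gene was called only with SE, at a log2 fold change of 1.24 ± 0.079 (adjusted p = 2.26e-08). With AE it reached 0.56, and 0.59 without AE replicate 3 or CTR replicate 3, which passed. HSPA4, a second HSP110, averaged 158 ± 13.6 TPM with SE and 108 ± 2.20 TPM in CTR, a log2 fold change of 0.54 that missed the fold threshold.

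HSPA1A and HSPA1B encode the same stress-inducible HSP70 and lie next to each other in the major histocompatibility complex. Of all 100-base windows of the main HSPA1A transcript, 72.4% occur in that of HSPA1B, and 68.9% the other way, so how the quantification split reads between them is uncertain. HSPA1B had 67.6, 48.4 and 66.3 TPM with AE, 82.2, 84.9 and 75.1 TPM with TE, 74.0, 72.0 and 73.0 TPM with SE and 43.7, 60.8 and 58.5 TPM with HTyr, against 32.1, 31.3 and 35.0 TPM in CTR. All treated libraries exceeded CTR, and TE, not SE, was highest.

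HSPA1A was listed far lower, at 2.21, 2.34 and 2.62 TPM with AE, 1.90, 2.49 and 2.22 TPM with TE, 2.15, 2.33 and 3.35 TPM with SE and 1.1, 1.39 and 2.4 TPM with HTyr, against 0.97, 1.64 and 1.41 TPM in CTR. HTyr overlapped with CTR and the extracts did not. The sum of both genes rose with each treatment, by a log2 fold change of 1.14 with SE (adjusted p = 5.59e-06), 1.27 with TE (adjusted p = 8.42e-06), 0.86 with AE (adjusted p = 1.28e-04) and 0.69 with HTyr (adjusted p = 8.28e-04), each with a standard error of 0.13. The calls of HSPA1A alone rested on few libraries. The one with AE, at 0.67, was lost on leaving out any AE library or CTR replicate 1 or 3 (adjusted p = 0.052 to 0.128), and the one with SE, at 0.75, on leaving out SE replicate 3 or CTR replicate 1 (adjusted p = 0.064 and 0.06).

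Both cytosolic HSP90 genes rose with SE. HSP90AA1, the stress-inducible form (ENSG00000080824, chr14:102080742-102139699), had 1162, 1128 and 1281 TPM with AE, 1087, 1066 and 1024 TPM with TE, 2089, 2249 and 2106 TPM with SE and 924, 965 and 1045 TPM with HTyr, against 693, 764 and 722 TPM in CTR. HSP90AB1, the constitutive form, had 1203, 1279 and 1324 TPM with AE, 1189, 1131 and 1162 TPM with TE, 2068, 2177 and 2153 TPM with SE and 1249, 1275 and 1391 TPM with HTyr, against 899, 865 and 895 TPM in CTR. In both, all treated libraries lay above CTR and the SE libraries above all others.

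The log2 fold change of HSP90AA1 was 1.56 ± 0.062 with SE (adjusted p = 3.09e-10) and 0.71 with AE, and those with TE (0.54) and HTyr (0.43) stayed under the fold threshold. HSP90AB1 changed by 1.27 ± 0.051 with SE (adjusted p = 3.74e-10), and by 0.52, 0.39 and 0.56 with AE, TE and HTyr. The HTyr value passed the threshold without HTyr replicate 1, at 0.59. Together the 2 genes reached a mean of 4280.2 ± 136 TPM with SE, 2459 ± 128 with AE, 2219.5 ± 49.2 with TE and 2283 ± 137 with HTyr, against 1612 ± 19.0 in CTR.

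**Figure D2:**
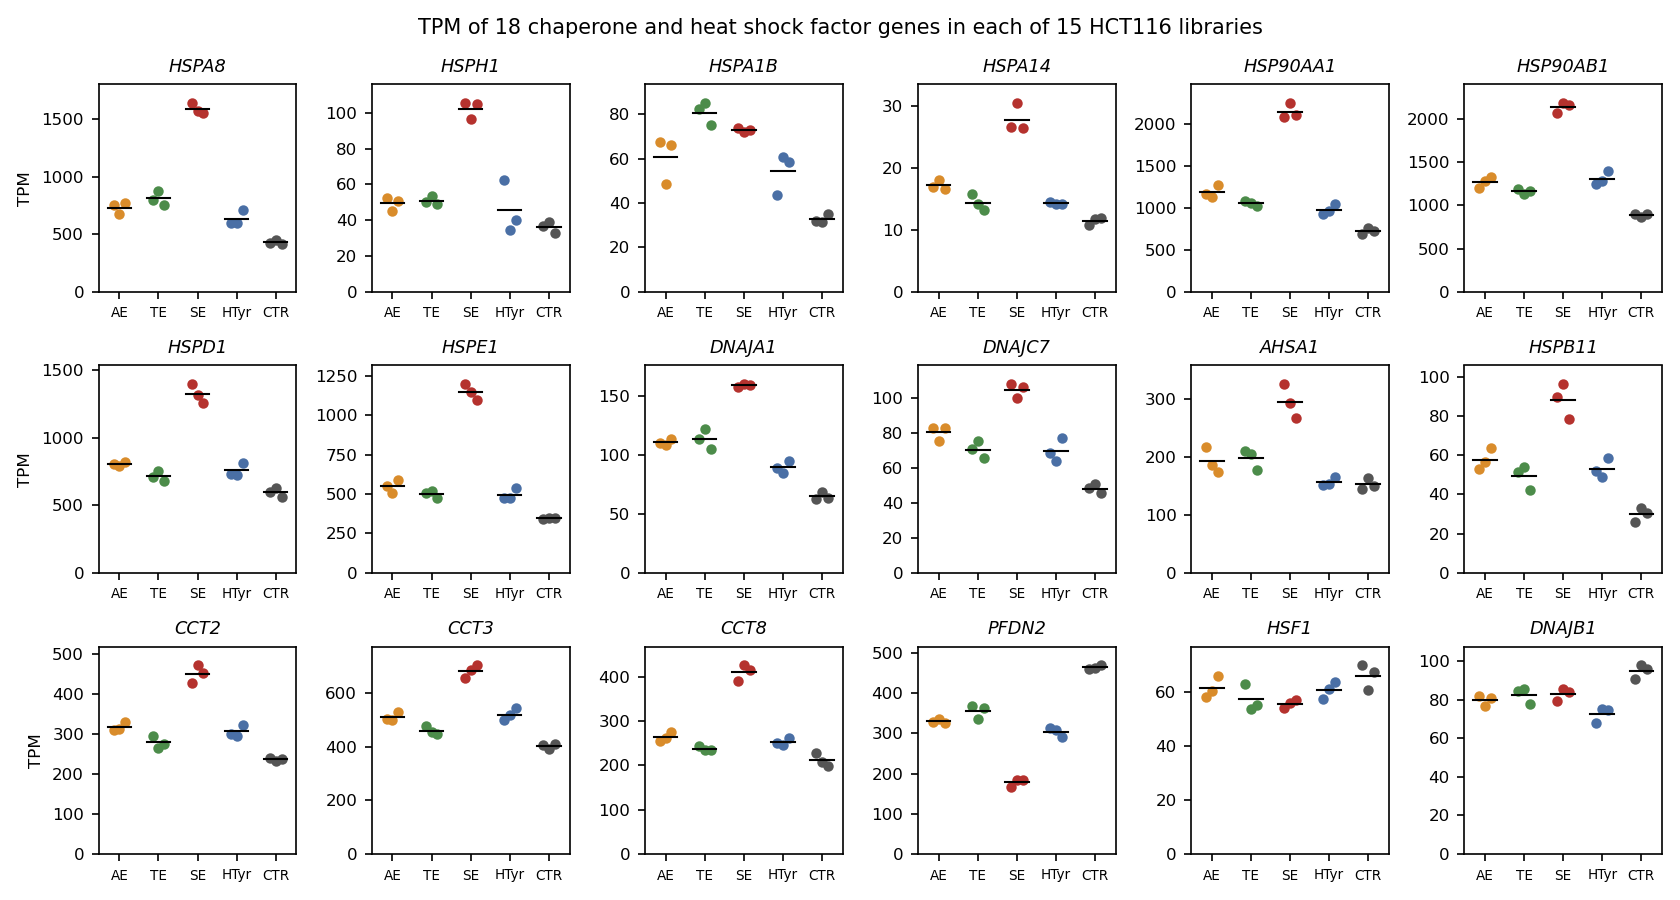
TPM of 18 chaperone and heat shock factor genes (1 panel each, linear axis from 0) in the 3 libraries of AE, TE, SE, HTyr and CTR, with the group mean as a line. The SE libraries stand apart from the other 12 in most panels, above them in HSPA8, HSP90AA1 and HSPE1 and below them in PFDN2, and not in HSPA1B, HSF1 or DNAJB1.

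The mitochondrial chaperonin genes, which share a promoter region on chromosome 2, both rose with SE, HSPE1 more than HSPD1. HSPE1, the HSP10 lid (ENSG00000115541, chr2:197500140-197503449), had 549.8, 504 and 591 TPM with AE, 505, 520.4 and 477 TPM with TE, 1195, 1145 and 1098 TPM with SE and 474, 474 and 539.5 TPM with HTyr, against 345, 351 and 351 TPM in CTR. HSPD1, the HSP60 barrel, had 804, 792 and 822 TPM with AE, 707, 753 and 683 TPM with TE, 1394, 1317 and 1253 TPM with SE and 733, 722 and 816 TPM with HTyr, against 599, 631 and 558 TPM in CTR. For both genes each treated library was above CTR and each SE library above the rest.

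HSPE1 rose by 1.71 ± 0.066 with SE (adjusted p = 2.53e-10) and by 0.65 with AE on the log2 scale, and HSPD1 by 1.15 ± 0.063 with SE (adjusted p = 5.32e-09), with smaller changes of 0.26 to 0.44 for the other treatments. Rescaling to a common median brought HSPE1 with AE to 0.55, below the threshold. The overlapping readthrough gene HSPE1-MOB4 had a mean of 6.24 TPM, and the pseudogenes of both genes summed to at most 0.491% of the parent gene. Over all members this share was at most 2.66%, for CCT6A.

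J-domain proteins, which deliver clients to HSP70 and stimulate its ATPase, did not move as 1 group. DNAJA1 had 110.2, 108 and 113 TPM with AE, 114, 122 and 105 TPM with TE, 158, 159.9 and 159 TPM with SE and 88.8, 84.8 and 94.8 TPM with HTyr, against 63.0, 68.4 and 63.8 TPM in CTR. DNAJC7, whose repeats bind both HSP70 and HSP90, had 82.8, 75.3 and 82.4 TPM with AE, 70.6, 75.1 and 65.3 TPM with TE, 108, 99.6 and 106 TPM with SE and 68.5, 63.9 and 76.7 TPM with HTyr, against 48.2, 50.5 and 45.5 TPM in CTR. Neither gene had a treated library within the CTR range. DNAJA1 rose with SE (log2 fold change 1.28 ± 0.060, adjusted p = 1.44e-09), AE (0.76) and TE (0.80), and DNAJC7 with SE (1.11 ± 0.075, adjusted p = 3.66e-08) and AE (0.73). DNAJC7 changed by 0.54 with TE and 0.53 with HTyr, and passed with TE without TE replicate 3 (0.60) and with HTyr without HTyr replicate 2 (0.59).

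The other 5 J-domain genes were not called against CTR. DNAJB1, the classical heat-inducible partner of HSP70, had lower levels in all treated groups. It averaged 80.0 ± 2.97 TPM in AE, 82.7 ± 4.15 in TE, 83.2 ± 3.25 in SE and 72.6 ± 4.0 in HTyr, against 94.9 ± 3.56 in CTR. All 12 treated libraries lay below the 3 of CTR, with log2 fold changes of -0.39 to -0.19 that had adjusted p under 0.05 but missed the fold threshold. DNAJB6, a suppressor of protein aggregation, had log2 fold changes of -0.34 to -0.22. DNAJC2, the ribosomal partner of HSPA14, differed in sign between treatments, at 0.40 with SE and -0.37 with HTyr. DNAJB4 reached 0.53 with SE, and 0.67 without CTR replicate 2, which passed, and DNAJA2 reached 0.32.

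The small heat shock proteins, which hold unfolding proteins without ATP, gave 2 opposite patterns. HSPB11, despite its name a subunit of the transport particles of cilia, had 53.0, 56.5 and 63.7 TPM with AE, 51.6, 54.1 and 42.3 TPM with TE, 89.8, 96.2 and 78.6 TPM with SE and 51.7, 48.9 and 58.4 TPM with HTyr, against 26.1, 33.1 and 30.4 TPM in CTR. All treated libraries were higher than CTR, with log2 fold changes of 1.55 ± 0.117 with SE (adjusted p = 1.04e-07), 0.94 with AE, 0.82 with HTyr and 0.71 with TE.

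HSPB8, which acts with BAG3 in the autophagy of damaged proteins, was low, with 2.66, 2.51 and 2.99 TPM with AE, 2.19, 1.92 and 2.98 TPM with TE, 3.84, 3.19 and 5.48 TPM with SE and 1.73, 2.66 and 2.23 TPM with HTyr, against 4.40, 5.16 and 6.07 TPM in CTR. The SE libraries overlapped with CTR and the other 9 treated libraries did not. It fell by 0.82 with AE, 1.00 with TE and 1.08 with HTyr on the log2 scale (adjusted p = 0.00517, 0.00162 and 7.92e-04), and its change with SE was -0.31 (adjusted p = 0.214). HSPB1, or HSP27, averaged 202 ± 20.4 TPM with SE and 134 ± 2.40 TPM in CTR, a rise of 0.59 at the edge of the threshold that was lost without SE replicate 3 (0.51) or CTR replicate 3 (0.58) and after rescaling (0.48).

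Among the BAG proteins, which release nucleotide from HSP70, BAG1 and BAG2 rose with SE and BAG2 with AE. BAG1 averaged 49.7 ± 0.110 TPM with SE and 27.3 ± 4.73 TPM in CTR (log2 fold change 0.87), and BAG2, which also restrains the ubiquitin ligase CHIP, 15.1 ± 0.878 TPM with SE and 7.74 ± 0.331 TPM in CTR (0.92). BAG1 with AE was at 0.58, and passed at 0.61 to 0.69 without AE replicate 1, CTR replicate 1 or CTR replicate 3. BAG2 with AE was at 0.65, and at 0.56 after rescaling, which did not pass. BAG3, the stress-inducible member, was not called, at 0.11 to 0.24.

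Of the 8 HSP90 and HSP70 partners, 6 rose with SE and 2, CHORDC1 and FKBP5, also with AE and TE. CHORDC1, an HSP90 partner (chr11:90200429-90223077), had 89.7, 69.1 and 80.3 TPM with AE, 68.0, 76.7 and 63.3 TPM with TE, 131, 122 and 126 TPM with SE and 57.6, 47.4 and 59.1 TPM with HTyr, against 44.03, 48.9 and 44.8 TPM in CTR. Only HTyr overlapped with CTR. Its log2 fold change was 1.45 ± 0.103 with SE (adjusted p = 6.12e-08), 0.78 with AE and 0.59 with TE. The TE call was lost without TE replicate 2 (0.51), CTR replicate 1 (0.56) or CTR replicate 3 (0.57), and after rescaling (0.54).

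AHSA1, which speeds the ATPase of HSP90, had 218, 187 and 174 TPM with AE, 209.9, 206 and 178 TPM with TE, 326, 294 and 268 TPM with SE and 151, 153 and 166 TPM with HTyr, against 145, 164 and 150.3 TPM in CTR. HTyr overlapped with CTR, and SE lay above every other library. The log2 fold change was 0.95 ± 0.094 with SE (adjusted p = 1.62e-06), and 0.03 with HTyr (adjusted p = 0.803). FKBP5, an immunophilin of steroid receptor complexes, was called at 0.69 with SE, 0.61 with AE and 0.60 with TE, close to the threshold. Its AE call was lost without AE replicate 3 or CTR replicate 1 (0.58 and 0.57), its TE call without TE replicate 1 or CTR replicate 1 (0.58 and 0.55), and all 3 calls after rescaling (0.52 with AE, 0.55 with TE and 0.58 with SE).

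STIP1, which bridges HSP70 and HSP90, rose by 0.75 with SE, FKBP4 by 0.82 and PTGES3, the p23 co-chaperone, by 0.80. Quantile normalization brought STIP1 to 0.47 and PTGES3 to 0.56, below the threshold. CDC37, which brings kinases to HSP90, and ST13, which stabilizes the ADP state of HSP70, were not called, with SE changes of 0.38 and 0.47. The partners summed to 1688 ± 94.1 TPM with SE, 1294 ± 75.0 with AE, 1245 ± 77.6 with TE and 1106 ± 54.0 with HTyr, against 1009.9 ± 46.5 in CTR.

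TRiC, the ring of 8 different subunits that folds actin and tubulin, rose in nearly all of its subunits with SE, and none was called with another treatment. Of its 8 genes 7 rose with SE, from CCT6A at 0.61 to CCT8 at 0.96 on the log2 scale, and CCT4 missed at 0.53, although it passed without CTR replicate 1 (0.59). CCT8 had 255, 262 and 275 TPM with AE, 243, 235 and 235 TPM with TE, 391, 425 and 415 TPM with SE and 249, 245 and 262 TPM with HTyr, against 228, 207 and 199 TPM in CTR. CCT2 had 311, 314 and 330 TPM with AE, 295, 266 and 277 TPM with TE, 428, 473 and 454 TPM with SE and 300.4, 297 and 324 TPM with HTyr, against 241, 234 and 239 TPM in CTR. CCT3 had 503, 499 and 531 TPM with AE, 476, 455 and 449 TPM with TE, 655, 688 and 704 TPM with SE and 498, 517 and 543 TPM with HTyr, against 405, 393 and 409 TPM in CTR.

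In these 3 subunits no treated library overlapped with CTR, and the SE libraries were above all others. With SE the log2 fold changes were 0.96 ± 0.056 for CCT8 (adjusted p = 1.02e-08), 0.92 ± 0.053 for CCT2 (adjusted p = 8.94e-09) and 0.76 ± 0.048 for CCT3 (adjusted p = 1.74e-08). With AE, TE and HTyr the 8 subunits had median changes of 0.33, 0.20 and 0.28, and 7, 6 and 5 of them had an adjusted p under 0.05 while staying under the fold threshold. The call of CCT6A with SE was lost without CTR replicate 1 or 2 (both 0.58) and after rescaling (0.50), and under quantile normalization those of TCP1, CCT3 and CCT5 fell to 0.50 to 0.54 and were lost as well. Summed over the subunits, SE reached 3662 ± 33.7 TPM, AE 2681 ± 75.4, TE 2428 ± 42.0 and HTyr 2556 ± 125, against 2126 ± 8.63 in CTR.

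Of prefoldin, the co-chaperone that hands actin and tubulin to TRiC, the list held 4 of the 6 subunits, and 1 of these fell with SE while 1 rose. PFDN2 (ENSG00000143256, chr1:161100556-161118055), had 329.7, 337 and 326 TPM with AE, 369.5, 335 and 363 TPM with TE, 166, 185 and 184 TPM with SE and 313, 308 and 291 TPM with HTyr, against 462, 464 and 469.8 TPM in CTR. All treated libraries lay below CTR, and SE below all of them. The gene fell by 1.38 ± 0.052 on the log2 scale with SE (adjusted p = 2.19e-10) and by 0.61 with HTyr (adjusted p = 1.51e-06), and its changes with AE and TE were -0.49 and -0.39. The HTyr call was lost without HTyr replicate 3 and after rescaling (-0.58 in both), while rescaling brought the AE change to -0.59, which passed.

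PFDN6 rose with SE by 0.59, a call lost without SE replicate 1, CTR replicate 1 or CTR replicate 3 (0.53 to 0.56) or after rescaling (0.49). PFDN4 and PFDN5 were not called, at 0.34 (adjusted p = 0.0512) and 0.20 (adjusted p = 0.00457) with SE. The other 2 subunits were among further chaperone genes examined. VBP1 was called up with SE, at 0.68 (adjusted p = 1.70e-05), with a mean of 80.1 ± 7.87 TPM in SE and 49.9 ± 2.26 in CTR. PFDN1 was not called, at 0.38, with means of 82.4 ± 14.9 TPM in SE and 62.6 ± 7.75 in CTR. PFDN2 was thus the only subunit with a negative change with SE. As a sum, the 4 listed genes had 962 ± 25.7 TPM with SE, 977 ± 19.1 with AE, 981 ± 1.84 with TE and 994 ± 30.8 with HTyr, against 1109.6 ± 34.0 in CTR. Without PFDN2, the other 3 summed to 784 ± 33.8 TPM with SE, 646 ± 16.6 with AE, 625 ± 18.5 with TE and 689.8 ± 41.1 with HTyr, against 645 ± 36.2 in CTR. The lower sum with SE thus came from PFDN2. SERPINH1, the collagen chaperone HSP47 of the endoplasmic reticulum, was not called, with changes of -0.10 to 0.26.

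**Figure D3:**
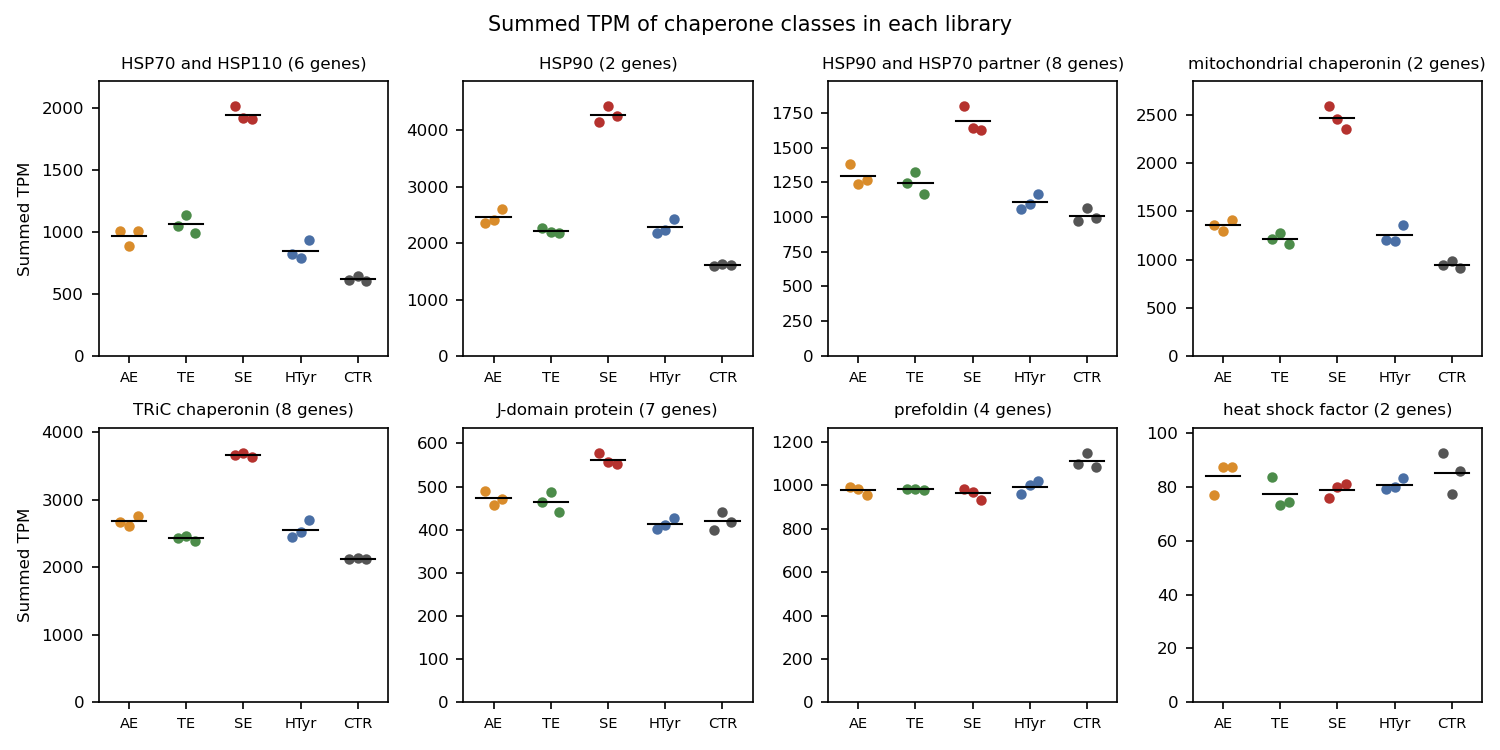
Summed TPM of 8 chaperone classes (1 panel each, linear axis from 0) in the 3 libraries of AE, TE, SE, HTyr and CTR, with the group mean as a line. HSP70 and HSP110, HSP90, the HSP90 and HSP70 partners, the mitochondrial chaperonin, TRiC and J-domain sums are highest in SE, while the prefoldin sum, which includes PFDN2, is highest in CTR and the heat shock factors overlap.

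Whether SE differed from the other treatments was tested directly in the same fit. Against HTyr, 20 of the 46 genes were called (19 higher and 1 lower with SE), where 7.36% of all genes were called in either direction. Against AE, 13 were called (12 higher, 1 lower), where 4.72% of all genes were, and against TE 17 (16 higher, 1 lower), where 8.36% of all genes were. After rescaling to a common median these were 14, 12 and 15, given without the shares of all genes under that scaling. The median difference over the 46 genes was 0.55 against HTyr, 0.38 against AE and 0.50 against TE, beside 0.13, 0.01 and 0.06 over all genes.

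Called higher with SE than with each of the other treatments were 10 genes: HSPA8, HSPA14, HSPH1, HSP90AA1, HSP90AB1, HSPB11, HSPD1, HSPE1, CHORDC1 and CCT8. After rescaling to a common median, HSP90AB1 (0.57) and CCT8 (0.56) were no longer called against HTyr, and under quantile normalization HSPB11 (0.56 and 0.54) and CCT8 (0.58 and 0.54) were not called against HTyr and AE. HSPA8 differed by 1.33 from HTyr, 1.12 from AE and 0.97 from TE, and HSPE1 by 1.21, 1.07 and 1.19. HSP90AA1 differed by 1.14, 0.85 and 1.02, and HSPH1 by 1.20, 1.04 and 1.00. PFDN2 was lower with SE than with HTyr (-0.77), AE (-0.89) and TE (-0.99). Of the 18 genes called up with SE alone, 11 were also called against at least 1 other treatment and 5 against all 3 (HSPA14, HSPH1, HSP90AB1, HSPD1 and CCT8). Rescaling removed all such calls of STIP1, FKBP4, TCP1 and CCT7, and left HSPA14, HSPH1 and HSPD1 called against all 3 treatments. Quantile normalization removed those of the same 4 genes and of CCT2. For the other 7 of the 18, a difference between SE and the other treatments was not called, which does not mean that none was seen. They include CCT3, CCT5 and CCT6A. Every TRiC subunit was higher with SE than with AE, TE and HTyr, by at least 0.30, 0.43 and 0.39 at adjusted p of 0.00444 or less. This holds for TRiC and is not given for the rest of the 7. The shares of all tested genes with these combined patterns were not counted, so these counts describe the chaperone genes only.

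Several of these differences rested on single libraries. Against AE, HSPB11 was lost without AE replicate 1 or SE replicate 2 (0.55 and 0.54), CHORDC1 without AE replicate 2 (0.57), AHSA1 without AE replicate 3 or SE replicate 1 (both 0.55) and CCT4 without AE replicate 1, SE replicate 2 or SE replicate 3 (0.55 to 0.58). Against TE, HSPA4 was lost without TE replicate 3 or SE replicate 1 (0.56 and 0.54), CCT7 without SE replicate 1 (0.56) and HSPB8 without TE replicate 1, TE replicate 2 or SE replicate 3 (adjusted p = 0.0631 to 0.0919). Against HTyr, STIP1 was lost without SE replicate 1, HTyr replicate 1 or HTyr replicate 2 (0.54 to 0.58), TCP1 without SE replicate 2 or HTyr replicate 1 (0.58 and 0.55) and HSPA4 without SE replicate 1 or HTyr replicate 2 (0.58 and 0.55), and HSPB8 was lost without SE replicate 3 (adjusted p = 0.051).

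**Figure D4:**
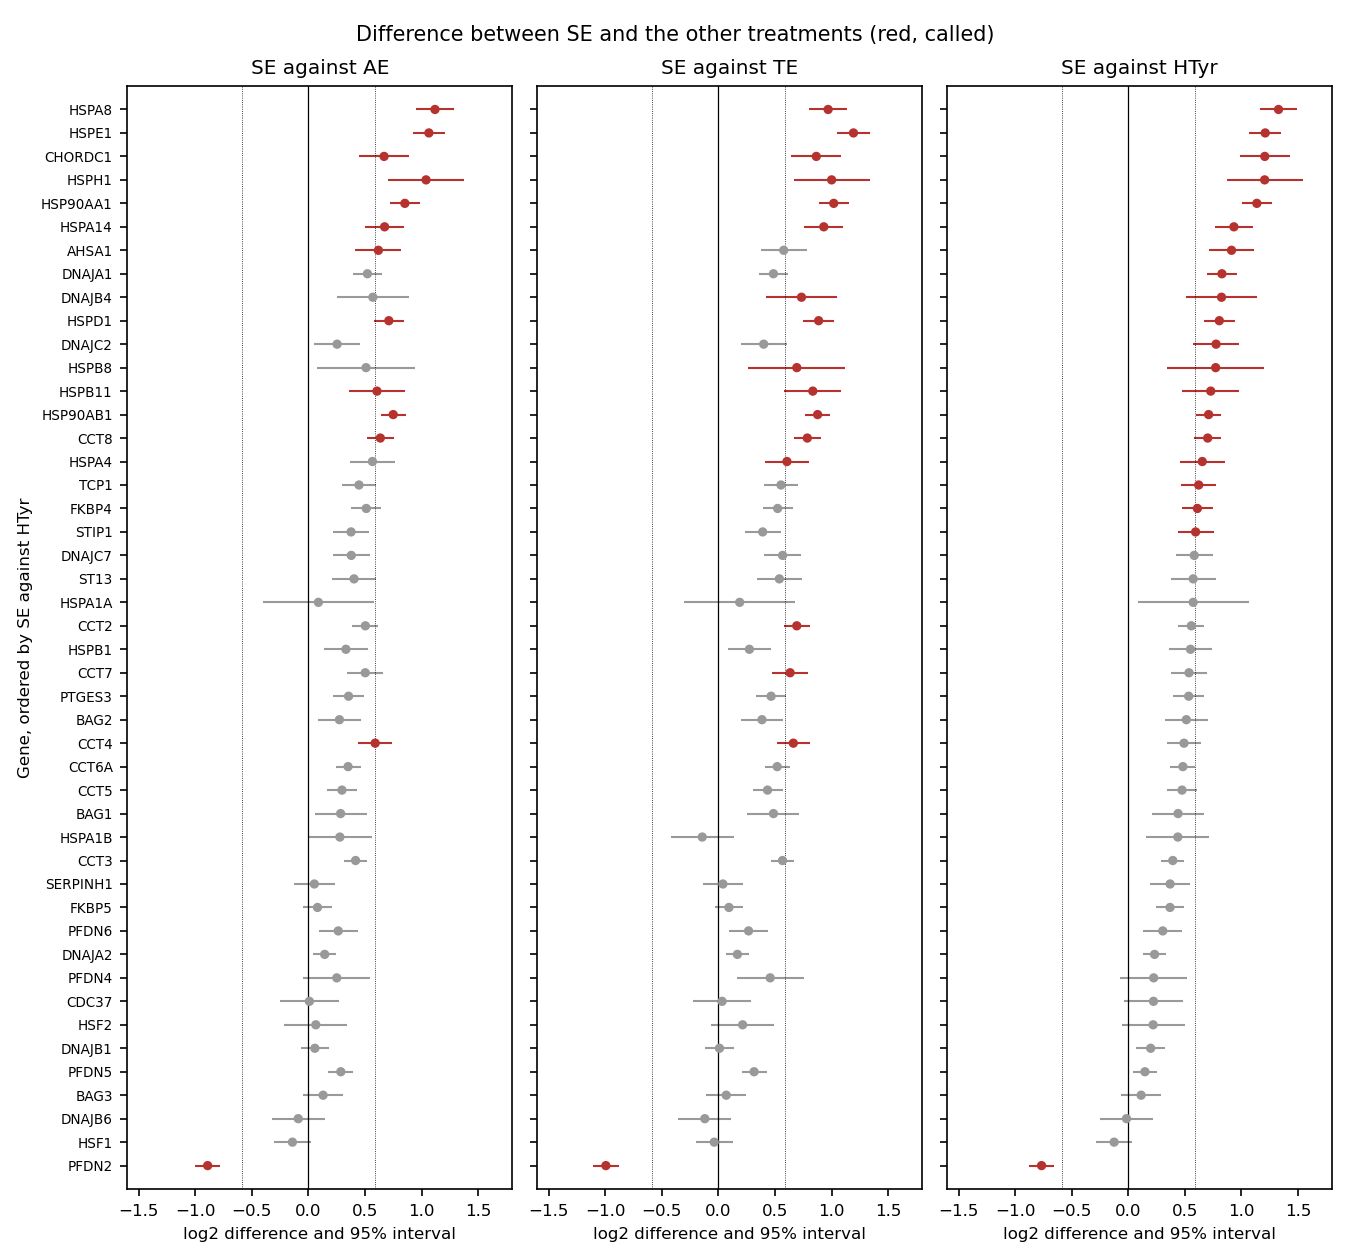
Difference between SE and AE, TE or HTyr (1 panel each) for the 46 chaperone genes on the log2(TPM + 0.5) scale, with 95% intervals, called differences in red and dotted lines at the fold threshold. Most genes lie right of 0, led by HSPA8 in the AE and HTyr panels and by HSPE1 in the TE panel. PFDN2 alone lies below the lower line in all 3 panels.

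HSPA1B kept apart from this pattern. Its difference between SE and TE was -0.14 ± 0.130 (adjusted p = 0.464), and that between SE and AE 0.28 ± 0.130 (adjusted p = 0.169). FKBP5 differed by 0.08 between SE and AE and by 0.09 between SE and TE. HSPB8 was higher with SE than with HTyr (0.77) and TE (0.69), being at 3.19 to 5.48 TPM in the SE libraries and at 1.73 to 2.98 TPM in those of HTyr and TE.

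Among the other treatments no chaperone gene was called by limma. Between AE and HTyr 0 of 46 genes were called, 6 of them with an adjusted p under 0.05 and 21 with an unadjusted p under 0.05, where 1.34% of all genes were called. Between TE and HTyr 0 were called, with 7 at an adjusted and 17 at an unadjusted p under 0.05, where 0.705% of all genes were. Between AE and TE 0 were called, with 0 at an adjusted and 11 at an unadjusted p under 0.05, where 0.0873% of all genes were. The widest gaps were CHORDC1 between AE and HTyr (0.54, 95% interval 0.31 to 0.76), HSPA1B between TE and HTyr (0.58, 0.30 to 0.86) and HSPA1B between AE and TE (-0.42, -0.70 to -0.14). The last favoured TE, and none of these intervals excludes a difference beyond the fold threshold.

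Of 56 further chaperone, co-chaperone and protease genes, 46 passed the filter. AE gave 5 rises and 1 fall among them, TE 2 and 1, SE 10 and 3 and HTyr 4 and 2. The shares that rose were close to or below those over all genes, at 10.9% for AE (10.7% of all genes), 4.35% for TE (7.46%), 21.7% for SE (17.0%) and 8.7% for HTyr (7.80%). Their median log2 fold changes were 0.14 in AE, 0.10 in TE, 0.26 in SE and 0.06 in HTyr, beside 0.09, 0.05, 0.09 and -0.04 over all genes. DNAJC9, a J-domain protein that also carries histones, had 45.2, 45.9 and 47.8 TPM with AE, 46.7, 42.1 and 42.0 TPM with TE, 47.2, 53.7 and 47.7 TPM with SE and 41.0, 39.0 and 44.5 TPM with HTyr, against 26.3, 25.4 and 27.1 TPM in CTR. It rose with all 4 treatments, by 0.65 to 0.90. TXNDC9, which binds TRiC, rose likewise by 0.60 to 0.95.

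DNAJB2, a J-domain protein with ubiquitin-binding motifs, had 19.8, 16.7 and 25.5 TPM with AE, 22.5, 23.0 and 19.8 TPM with TE, 16.6, 14.3 and 17.1 TPM with SE and 22.1, 19.1 and 20.7 TPM with HTyr, against 39.0, 38.2 and 38.9 TPM in CTR. It fell with all 4, by 1.25 with SE and 0.82 to 0.91 with the others, with every treated library below CTR. PPP5C, a phosphatase of the HSP90 complex, and HSPA2, a testis-enriched HSP70 at 0.31 to 1.91 TPM here, rose with AE, SE and HTyr. The 8 mitochondrial chaperones and proteases other than HSPD1 and HSPE1 stayed under the fold threshold with each treatment, with an adjusted p under 0.05 for 3 of them in AE, 1 in TE, 5 in SE and 3 in HTyr. These were not all rises. With SE, 3 of the 8 changes were positive and the median was -0.06. The median was 0.12 with AE, 0.12 with TE and -0.03 with HTyr.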

How the data were processed

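The authors sequenced 15 poly(A) RNA libraries of HCT116 cells, aligned reads to GRCh38 with STAR and quantified genes with RSEM. Both tools are named in the submitters' processing notes, in versions that the sources used here do not state. The authors deposited 1 TPM per gene and library to 2 decimals and did not scale libraries to each other. TPM keep no depth, so no count model was fitted here and no counting error can be given. Samples were grouped from their labels. Symbols and coordinates came from GENCODE 44, and promoter windows from RefSeq.

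Genes reaching 1 TPM in 3 or more libraries (14899) were analysed as log2(TPM + 0.5) with limma 3.58.1 in R 4.3.3, in 1 fit over the 5 groups with a mean-variance trend, and p-values were adjusted by Benjamini-Hochberg. Fold changes on this scale understate changes of low genes. The text may name any gene of the list. It gives every library for HSF1, HSPA1A, HSPA1B, genes called with all 4 treatments and the 12 with the smallest adjusted p. Of the genes called with 1 treatment only and also against another treatment, it does so for those with the largest fold changes. STIP1, FKBP4, TCP1 and CCT7 were left out by that limit. HSPB8 and CHORDC1, and the prefoldin subunits VBP1 and PFDN1, were added after their values were seen. From the further chaperone genes, those called in 1 direction with at least 3 treatments were named, with values by library for DNAJC9 and DNAJB2. The genes, lists and comparisons were chosen with earlier results of these data known. The fit was checked on simulated data, with genes changed by set amounts on the log2 scale. It called 65% of genes raised by 0.7, 92.5% of those raised by 1 and 77.5% of those lowered by 1, with 5 false calls. Changes near the threshold are thus often missed. Python 3.11.15, numpy 2.4.6, pandas 2.3.3 and matplotlib 3.10.9 prepared tables and figures.

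Alternative settings were median-ratio scaling (the rescaling to a common median), quantile normalization, leaving out mitochondrially encoded genes, fitting only the groups compared, pseudocounts of 0.1 and 1, a minimum mean of 5 TPM or no minimum, a replicate block, array weights, no trend, other fold thresholds and leaving out each library.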

Additional observations from a re-analysis of the deposited data

How the results depend on the processing

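No change of direction among called genes was found under any alternative, and the counts for SE against CTR stayed at 21 to 29 rises under every scaling. Pseudocounts, no filter on low values, fitting only the groups compared, array weights and no mean-variance trend left each count of calls within 1.5 times its value. At a mean of at least 5 TPM, which removes HSPB8, 0 genes fell with AE, 0 with TE and 1 with HTyr. Median-ratio scaling gave 2 falls with AE, and 4 rises and 1 fall with HTyr, and quantile normalization gave 2 falls with AE. Without mitochondrially encoded genes, 1 gene was called between TE and HTyr. The fold threshold mattered most. Counts under each setting are given here without the share over all genes, so they show only how calls moved. Without it, AE had 31 rises and 3 falls, TE 29 and 3, SE 39 and 4 and HTyr 21 and 5, and 6 were called between AE and HTyr, 7 between TE and HTyr, 39 between SE and HTyr, 31 between SE and AE and 36 between SE and TE. At an absolute log2 fold change over 1, 0 rose and 0 fell with AE, 1 rose with TE, 12 rose with SE, 0 rose and 1 fell with HTyr, 5 were called between SE and HTyr, 3 between SE and AE and 3 between SE and TE, and the summed HSPA1A and HSPA1B changes with AE (0.86) and HTyr (0.69) no longer passed. Leaving out 1 library at a time gave 2 to 4 rises and 1 to 2 falls with HTyr, 0 to 1 calls between AE and HTyr and 0 to 1 between TE and HTyr.

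The replicate numbers are shared between groups, but over the 30 pairs of libraries with the same number the correlation of deviations from the group means had a median of 0.003 and ranged from -0.21 to 0.26, with 3 pairs over 0.1, so the numbers were not taken to pair libraries. A fit with a replicate block gave 11 rises for AE, 6 for TE, 29 for SE and 2 for HTyr, and 20, 13 and 17 calls of SE against HTyr, AE and TE, and changed no call. With 3 libraries a group and no depth, changes of low genes such as HSPA1A and HSPB8 are the least certain.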
